A study of Mus musculus with 8 samples.

Results

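The genes described here are 10 protein-coding mouse genes, Thbs1, Itsn1, Hypk, Bfar, Ankra2, P2rx7, Nup98, Tpm3, Cdk11b and Tor1aip2, each with a strong exonic RBM45 site that was chosen for its content of the trinucleotide GAC. They were selected on measured values of the same peak lists, namely the strength of their exonic peaks in wild-type (WT) cells and the number of GAC in them, so strength and GAC content are given as a description and were not tested. They are 10 of 55450 annotated genes, and they held 398 of 387749 distinct peaks in WT CLIP replicate 1 and 312 of 344700 in replicate 2. In the files, each of the 10 genes had a shared exonic site with 3 to 16 GAC and a fold over background of 10 or more in both replicates.

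The series profiled RNA bound by RBM45 in mHippoE-2 cells, a transformed hippocampal neuronal line of mouse. The cells were transduced with a lentivirus expressing mouse RBM45 with FLAG and HA tags, so the protein measured is an added, tagged copy. The 8 libraries form 4 groups of 2, which are iCLIP and size-matched input from WT cells, and iCLIP and size-matched input from cells lacking Mettl3, the catalytic subunit of the main m6A methyltransferase. HA antibody was used for the pull-down. The results use the peaks called in each of the WT CLIP libraries and the deposited list of pairs shared between them. The labels do not state separate cultures for the replicates, the number of reads behind the peaks is unknown, and no expression values were used with which to check the cell type.

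RBM45 is an RNA-binding protein of neurons with several RNA recognition motifs, which can bind single-stranded RNA that contains GAC. In iCLIP, ultraviolet light links a protein to the RNA it touches, and the linked RNA is purified with the protein and sequenced. Sites in a coding sequence or an untranslated region (UTR) remain in the mature mRNA, whereas intronic sites belong to the pre-mRNA. The m6A mark is placed within a related context called DRACH, in which AC follows a purine (R) that is itself preceded by any base but C (D), with any base but G after it (H). Many GAC sites are therefore also DRACH sites.

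The stretches of 30 nt with the most GAC in each gene's strongest shared exonic site are printed because the arrangement of the GAC differs among the genes. They are given 5′ to 3′ with GAC in capitals, as letters of the GENCODE M21 transcripts (mm10), with T for U. Those of Itsn1, Bfar, Cdk11b, Hypk and Nup98 hold GAC after GAC with a single base between. That of Tor1aip2 has 1 such pair, and that of P2rx7 repeats with other spacings.
Itsn1, chr16:91828947-91828976, plus strand: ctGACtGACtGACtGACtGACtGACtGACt
Bfar, chr16:13703409-13703438, plus strand: gaGACcGACaGACgGACaGACgGACaGACa
Cdk11b, chr4:155625457-155625486, plus strand: ggaaaaGACaGACcGACaGACcGACcgtag
Hypk, chr2:121458258-121458287, plus strand: taGACattctgGACtGACtGACtGACtgaa
Nup98, chr7:102120018-102120047, minus strand: GACaGACatctggcatatGACtGACtGACc
Tor1aip2, chr1:156051627-156051656, plus strand: agtGACtGACagtattctaGACtgGACtgg
P2rx7, chr5:122683394-122683423, plus strand: tcaGACggatGACctcaGACggatGACctc
Tpm3, chr3:90098754-90098783, plus strand: tttctaacaataaaagcactGACttGACaa
Ankra2, chr13:98273290-98273319, plus strand: cggttgagctGACgcagtGACttttgtgtg

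The Thbs1 site is coding sequence, and its 235 exonic bases are printed whole because each of its 16 GAC is a codon for aspartate in the reading frame of the protein.
Thbs1, chr2:118122446-118122680, plus strand: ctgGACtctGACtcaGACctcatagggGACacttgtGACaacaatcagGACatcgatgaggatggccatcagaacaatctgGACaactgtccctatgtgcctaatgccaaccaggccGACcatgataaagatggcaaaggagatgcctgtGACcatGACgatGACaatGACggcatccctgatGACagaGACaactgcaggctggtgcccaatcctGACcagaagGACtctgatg

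The exonic peaks of these genes were stronger than their intronic ones. Of the 398 peaks in replicate 1, 105 were exonic (26.4%), with 64 in 3′ UTRs, 37 in coding sequence and 4 in 5′ UTRs, and 293 were intronic. Of the 312 in replicate 2, 78 were exonic (25%), with 44, 27 and 7 in the same classes, and 234 were intronic. Over all genes 9.81% and 9.09% of peaks were exonic. The fold over background, a ratio given by the authors' peak caller for each peak, had a median of 3.79 in exonic and 1.91 in intronic peaks of replicate 1, and of 3.91 and 1.9 in replicate 2. A fold of 10 or more was reached by 13 exonic and 0 intronic peaks in each replicate. The intronic maximum was 6.15 in replicate 1 (Nup98) and 6.2 in replicate 2 (Thbs1). Most intronic peaks had the least width of 30 bp (239 of 293 and 189 of 234), against 35 of 105 and 20 of 78 exonic ones. In each of the 9 genes with intronic peaks the strongest exonic peak had a higher fold than the strongest intronic one in both replicates, and Hypk had no intronic peak. Of the 5.38 kb of Hypk, 4.38 kb is annotated as exon, which leaves little intron for such a peak. The exonic strength was part of the choice of genes, so these differences carry no test. No RNA level was set beside the folds.

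**Figure D1:**
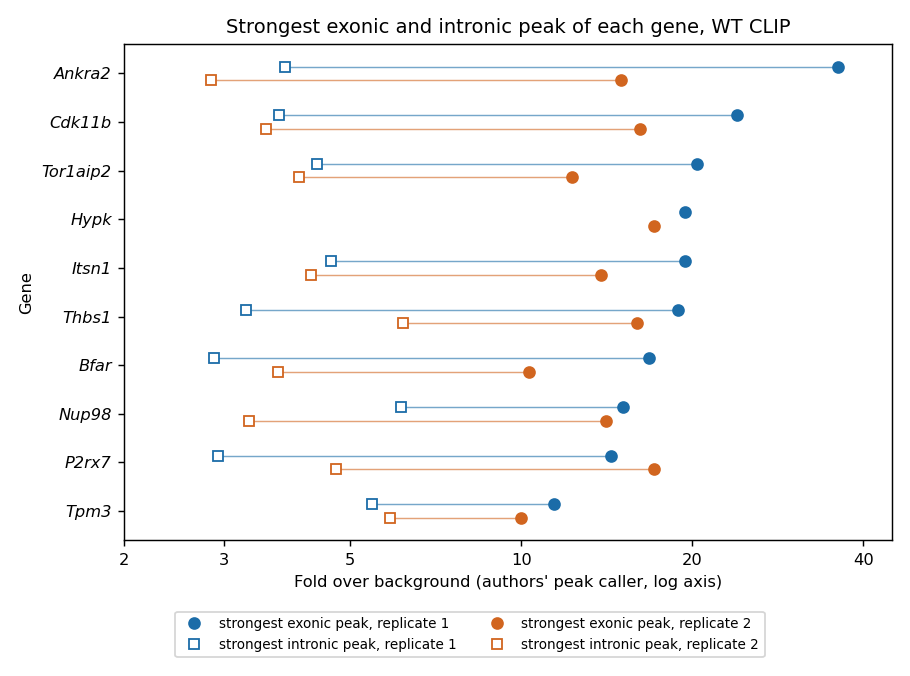
Fold over background (log axis) of the strongest exonic peak (filled circles) and the strongest intronic peak (open squares) of each gene in WT CLIP replicates 1 (blue) and 2 (orange). Every filled circle lies at or above 10, every open square lies at or below 6.2, and Hypk has no square because it had no intronic peak.

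Strong exonic pairs shared by the replicates were part of the choice of genes, so how often their exonic peaks recurred is given as a description. Of their 78 replicate 2 exonic peaks, 48 overlapped a replicate 1 peak by at least 1 bp (61.5%, Wilson 95% interval 50.4 to 71.6), and 10.0% of the exonic replicate 2 peaks of all genes did. Without the 11 peaks of pairs with a fold of 10 or more in both replicates, the share was 37 of 67 (55.2%), and weaker pairs near the strong sites remain in it. Of their 234 intronic replicate 2 peaks 27 did so (11.5%, 8.05 to 16.3), beside 7.66% over all genes. Without Thbs1 the exonic share was 34 of 60 (56.7%). Strength moves with this share and was part of the choice of genes: at a −log10 p of 5 or more it was 37 of 46 (80.4%) here and 26.5% over all genes, and below 5 it was 11 of 32 (34.4%) here and 8.52% over all genes. The intronic share of the 10 genes at a −log10 p of 5 or more was 7 of 21 replicate 2 peaks (33.3%, 17.2 to 54.6). Taken from replicate 1 it was 3 of 28 (10.7%, 3.71 to 27.2). The share over all genes at this cut was not counted for intronic peaks. When 50% of the replicate 2 peak had to be covered, the share was 6.41% of all intronic peaks of the 10 genes. The intervals cover counting error only.

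The deposited shared list held 37 pairs of exonic peaks in the 10 genes, of which 26 lay in 3′ UTRs, 8 in coding sequence and 3 in 5′ UTRs. Over all genes it held 1897 exonic pairs, and 18 of them (0.949%) reached a fold of 10 in both replicates. Of these 18, 11 belonged to the 10 genes, 2 of them in P2rx7, which describes how the genes were chosen and is no finding. The weakest pair just inside that fold was that of Tpm3, at 11.4 and 10, and the next below it was a coding site of Thbs1 at 9.92 and 13.1, followed by one in Ptx3 at 16.9 and 9.75. The other 7 pairs inside it belonged to 6 genes: 2 in Neat1 and 1 each in Rbm45, Hsd17b11, Ubtd1, Mir27a and Fgg. Several were as rich in GAC as those of the 10 genes. Rbm45 had 10 GAC in 298 nt (folds 44.8 and 50.1), the stronger Neat1 pair had 15 in 473 nt (27.7 and 18.3), Hsd17b11 had 8 in 220 nt (15.5 and 17.8) and Ubtd1 had 6 in 181 nt (10.9 and 10.3), so the 10 genes are not a complete list of such genes. In the strongest shared site of each of the 10 genes, the fold was higher in replicate 1 in 9 of 10, and the midpoints of the paired peaks lay 14.5 bp apart at the median and 41 bp at most.

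**Figure D2:**
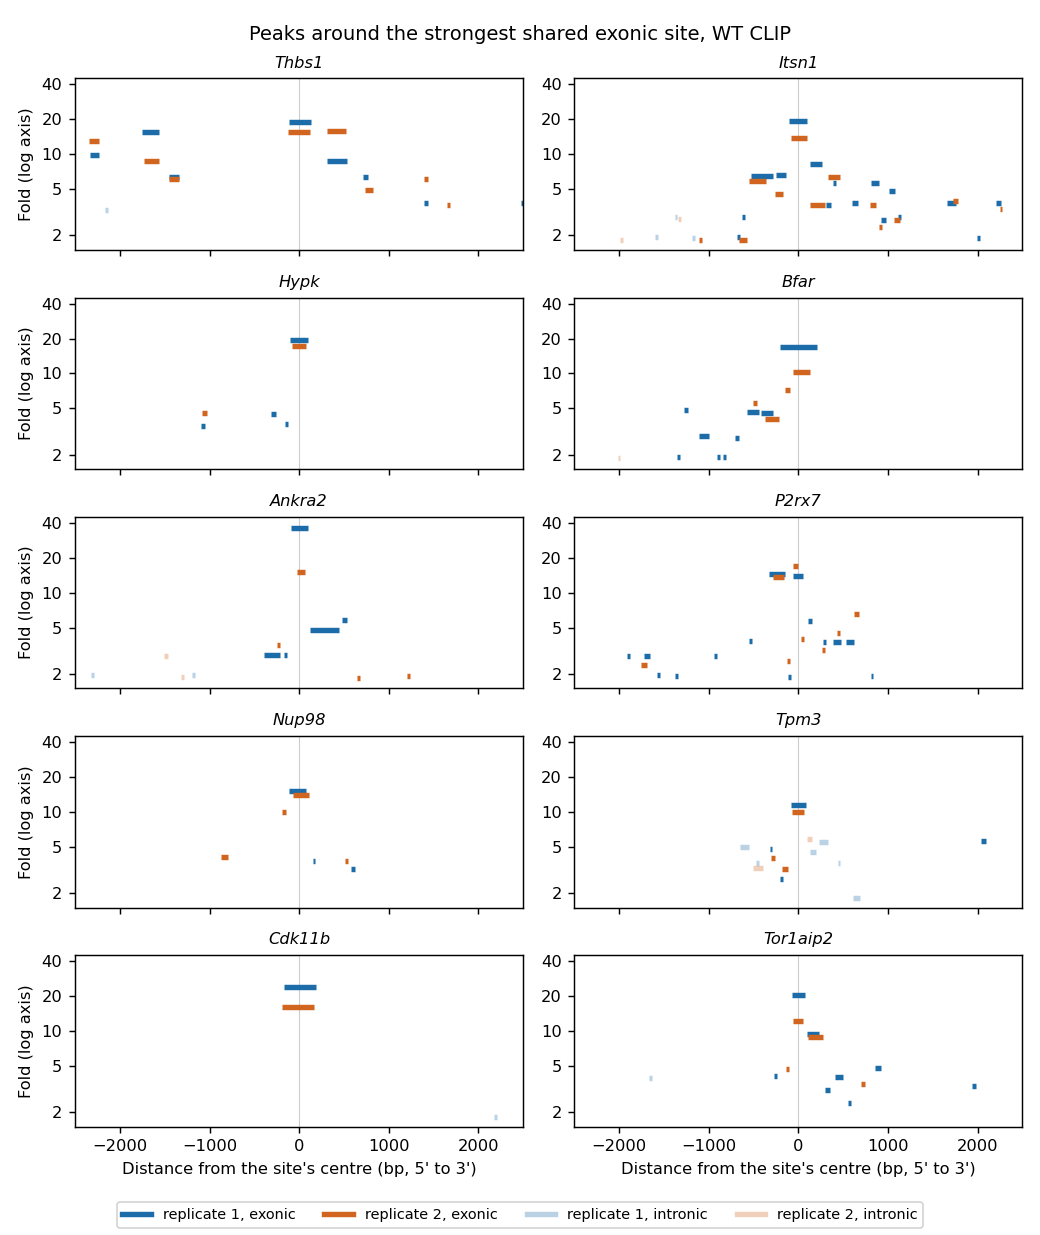
Peaks within 2500 bp of the centre of each gene's strongest shared exonic site, drawn at their width (x axis, bp in the direction of transcription) and their fold over background (y axis, log axis), for WT CLIP replicates 1 (blue) and 2 (orange), with intronic peaks pale. In Hypk and Cdk11b the site stands with few other peaks near it, whereas Itsn1 and P2rx7 have further exonic peaks on either side.

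Thbs1 encodes thrombospondin 1, a secreted matrix glycoprotein whose type 3 repeats bind calcium through runs of aspartate. Its strongest shared site (mm10, chr2:118122442-118122695) lay in coding exon 17 of 22, with folds of 18.9 in replicate 1 and 15.7 in replicate 2. Thbs1 had 23 exonic peaks in replicate 1 and 18 in replicate 2, 15 and 11 of them coding, and 12 exonic pairs in the shared list, of which 7 were coding. The replicates did not rank the coding sites alike: the exon 18 site (chr2:118122880-118123098, 12 GAC) had 8.74 and 16, the latter being the highest fold of Thbs1 in replicate 2. The exon 15 site (chr2:118120820-118121006, 9 GAC) had 15.5 and 8.78, and the exon 14 site (chr2:118120220-118120336, 8 GAC) had 9.92 and 13.1. The coding sites in exons 13 (chr2:118119841-118119961), 16 (chr2:118121116-118121232) and 20 (chr2:118123961-118124009) had folds between 3.77 and 7.12. They held 4, 6 and 1 GAC. A peak of 10.1 in replicate 1 (chr2:118120000-118120042), also coding, had no counterpart in replicate 2.

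The shared Thbs1 coding sites of exons 14 to 18 lay in or reached into the stretch where GAC codons for aspartate are dense. Those of exons 13 and 20 lay on either side of it, and the exon 20 site held 1 GAC, out of frame, at 20.4 per kb. The 7 shared coding sites covered 1008 of 3513 coding bases (28.7%), between codons 652 and 1122 of 1171, and held 56 of the 107 coding GAC, or 55.6 per kb against 20.4 per kb in the rest of the coding sequence. In frame, as aspartate codons, were 51 of the 56 GAC inside the sites (91.1%) and 35 of 51 outside (68.6%). Upstream of codon 652 there were 6 peaks in replicate 1 and 2 in replicate 2, with folds of at most 4.58 and 4.75, and no shared one. Thbs1 had 1 intronic peak in each replicate, with folds of 3.28 and 6.2, at different places. Its 5 shared 3′ UTR sites held 0 or 1 GAC each and were weaker than the strongest coding sites. These were chr2:118125781-118125837 (4.78 and 5.33), chr2:118125981-118126080 (4.53 and 3.86), chr2:118126551-118126649 (2.47 and 2.78), chr2:118126753-118126890 (7.85 and 1.84) and chr2:118126963-118127092 (7.08 and 2.66).

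**Figure D3:**
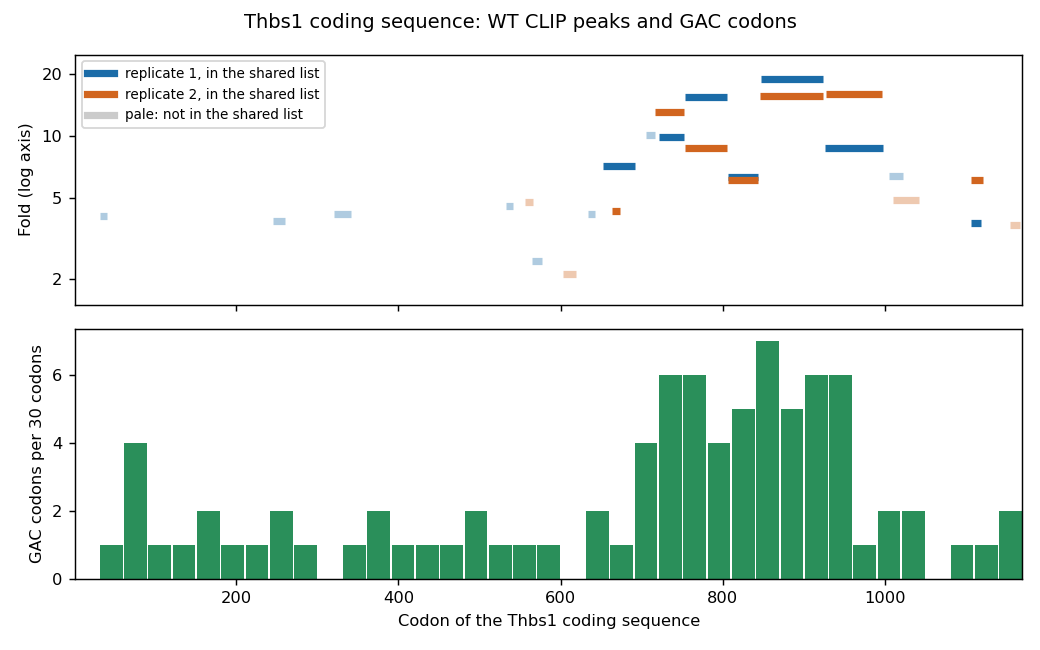
Thbs1 coding sequence from codon 1 to 1171 (x axis). The upper panel gives the fold over background (log axis) of each coding peak of WT CLIP replicates 1 (blue) and 2 (orange), pale where it is not in the shared list, and the lower panel gives the number of GAC codons in each 30 codons, which is 4 to 7 from codon 691 to 960.

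Itsn1 encodes intersectin 1, a scaffold of endocytosis at the synapse. Its strongest site (chr16:91828922-91829122) had folds of 19.4 and 13.8 and 9 GAC in 201 nt. It lay 643 nt after the stop codon, in the 3975 nt 3′ UTR of Itsn1-203, and 8 of its GAC stand in a single run spaced by 4 nt. Itsn1-203 is the only 1 of 16 protein-coding transcripts in which this position is exonic; it is intronic in 7 and beyond the span of 8, so the site marks RNA of that transcript or of the intron, which these peaks cannot tell apart. The 5 other shared sites of this UTR were weaker and held fewer GAC. Flanking the strongest, chr16:91828473-91828739 had folds of 6.46 and 5.93 (1 GAC), chr16:91828764-91828882 had 6.63 and 4.57 (0 GAC) and chr16:91829147-91829319 had 8.31 and 3.66 (1 GAC). Farther downstream lay chr16:91829819-91829920, with 5.68 and 3.63 (1 GAC), and chr16:91830678-91830802, with 3.82 and 3.97 (4 GAC). Itsn1 had the most intronic peaks of the 10 genes, 163 and 115, but their highest folds were 4.62 and 4.27. It also had 11 of the 15 shared intronic pairs of the 10 genes.

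Hypk encodes a chaperone-like partner of the N-terminal acetyltransferase NatA that also binds huntingtin. Its site (chr2:121458215-121458411) had folds of 19.4 and 17.1, the closest agreement between replicates in position among the 10, with midpoints 0.5 bp apart. It begins in the last coding bases of the final exon, exon 5 of 5, and is centred 68 nt after the stop codon in a 3′ UTR of 266 nt. It held 6 GAC and a U tract that counts as 10 overlapping UUUUU. Hypk had 4 peaks in replicate 1 and 2 in replicate 2, all exonic, with a second shared one in coding sequence (chr2:121457218-121457281, 3.51 and 4.61, 2 GAC). Readthrough transcripts of the neighbouring gene Serf2 overlap the stronger site on the same strand, so the peak cannot be given to Hypk alone.

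Bfar encodes an apoptosis regulator of the endoplasmic reticulum with a RING domain. Its site (chr16:13703262-13703670) was a wide replicate 1 peak of 409 bp with a fold of 16.8, which was paired with replicate 2 peaks of 10.3 (187 bp) and 7.24 (55 bp). It lay at the end of the 3′ UTR, centred 1179 nt after the stop codon in 1355 nt, and ran 58 bp past the annotated transcript end. Its 351 transcribed bases held 14 GAC, 7 of them in a run spaced by 4 nt. The other shared sites of this UTR were chr16:13702898-13703028, with folds of 4.62 and 5.56 (3 GAC), and chr16:13703052-13703250, with 4.56 and 4.03 (2 GAC). The 21 and 27 intronic peaks had folds of at most 2.88 and 3.73, and no intronic pair was shared. Another gene on the same strand, 3110001I22Rik, overlaps the annotated body of Bfar, and whether it covers any of these peaks was not checked.

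Ankra2 encodes an ankyrin-repeat protein that binds the endocytic receptor megalin and class IIa histone deacetylases. Its site (chr13:98273247-98273433) had the highest fold of any peak in the 10 genes, 36.1 in replicate 1, but 15 in replicate 2, and the replicate 2 peak was 89 bp wide against 187 bp. It held 4 GAC, at 21.4 per kb the lowest density of the 10 sites and below the 27.3 per kb of shared exonic sites of other genes with a fold of 5 or more, so the description as GAC-rich does not hold for Ankra2 on that scale. The position is in the 3′ UTR of 2 protein-coding transcripts and in an intron of the other 4. The other shared exonic pair (chr13:98272943-98273123) had 2.93 and 3.53, with 3 GAC. The strongest intronic peaks had 3.84 and 2.84.

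P2rx7 encodes an ATP-gated ion channel of the P2X family, known for its part in inflammatory signalling. It was the only 1 of the 10 genes with a pair of sites at a fold of 10 or more in both replicates. The site chr5:122683388-122683501 had 14 and 17.1, with 7 GAC in 114 nt, and chr5:122683121-122683292 had 14.4 and 13.7, with 5 GAC in 172 nt. Both lay in the 2985 nt 3′ UTR of P2rx7-203, 2140 and 1902 nt after the stop codon, and both are exonic in 2, intronic in 1 and not spanned by 2 of 5 protein-coding transcripts. The replicates differed in which was higher, but all 4 folds exceeded every other peak of the gene. Between and beyond them lay weaker pairs: chr5:122683318-122683362 (1.87 and 2.58, 3 GAC), chr5:122683711-122683752 (3.79 and 3.18, 2 GAC) and chr5:122683834-122683921 (3.79 and 4.48, 4 GAC). A second replicate 2 peak (chr5:122683478-122683510, fold 3.97) was paired with the replicate 1 peak of the strongest site. The strongest intronic peaks had 2.92 and 4.71. Mir8115 overlaps the annotated body of P2rx7 on the same strand, and whether it covers any of these peaks was not checked.

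Nup98 encodes a nucleoporin with FG repeats that is made as a joint precursor with Nup96. Its only shared exonic site (chr7:102119895-102120123, minus strand) had 15.1 and 14.1, with 7 GAC in 229 nt of the last exon, exon 33 of 33. It was centred 444 nt after the stop codon in the 1056 nt 3′ UTR of Nup98-203. That is the only 1 of 6 protein-coding transcripts in which the position is exonic, and the other 5 do not span it. Just upstream in the transcript, replicate 2 had a peak of 9.96 (chr7:102120153-102120202) with no counterpart in replicate 1. The 24 and 14 intronic peaks had folds of up to 6.15 and 3.31, and none was shared.

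Tpm3 encodes an actin-binding tropomyosin. Its site (chr3:90098677-90098850) was the weakest of the 10, with 11.4 and 10, and held 3 GAC in 107 transcribed bases, or 28 per kb, close to those same sites of other genes. It reached 67 bp past the annotated end of Tpm3-203, the only 1 of 7 protein-coding transcripts in which it is exonic. It is intronic in 3 of the others. The strongest intronic peaks of the gene, chr3:90098989-90099098 in replicate 1 (5.45) and chr3:90098861-90098916 in replicate 2 (5.88), lay just past that end, so the intronic label rests on where Tpm3-203 is annotated to stop. Of the intronic peaks, 4 in replicate 1 and 2 in replicate 2 lay within 500 bp of the site's centre, and none did in the other 9 genes.

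The leading sites of Cdk11b and Tor1aip2 lay in 5′ UTRs. Cdk11b encodes a cyclin-dependent kinase that acts in transcription and splicing with cyclin L. Its site (chr4:155625183-155625563) had 24 and 16.2, with 13 GAC in 381 nt, and was centred 171 nt before the start codon in the 661 nt 5′ UTR of Cdk11b-203. In the other 2 protein-coding transcripts the position is intronic. It was the only shared exonic site of Cdk11b, whose intronic peaks reached 3.75 and 3.55. Tor1aip2 encodes LULL1, a cofactor of torsin ATPases in the endoplasmic reticulum. Its site (chr1:156051595-156051737) had 20.4 and 12.3, with 5 GAC in 143 nt, centred 212 nt before the start codon of Tor1aip2-207, and it is exonic in 4 and intronic in 3 of 7 protein-coding transcripts. The site lies in exon 3 of 3 of Tor1aip2-207, and whether that transcript encodes LULL1 was not checked. A neighbouring shared site (chr1:156051759-156051938) had 9.35 and 8.83, with 3 GAC in 180 nt.

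The class of a site thus depended on the transcript in most of these genes. In 6 of 10 (Itsn1, Ankra2, P2rx7, Tpm3, Cdk11b and Tor1aip2) the leading site was intronic in at least 1 other protein-coding transcript. In Thbs1, Hypk, Bfar and Nup98 it was intronic in none. In Nup98, however, it was exonic in only 1 of 6 protein-coding transcripts, and the other 5 do not span it. By class, 7 leading sites were in 3′ UTRs, 2 in 5′ UTRs and 1 in coding sequence.

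The site was denser in GAC than the parts of its own transcript outside all peaks in each of the 10 genes. The ratio of these densities ran from 1.7 in Ankra2 to 4.16 in Thbs1, with a median of 2.89. Thbs1 had 68.1 GAC per kb in the site and 16.3 outside, P2rx7 had 61.4 and 18.7, Itsn1 had 44.8 and 12.5, and Ankra2 had 21.4 and 12.6. In 8 of 10 genes no stretch of 30 nt elsewhere in the transcript held more GAC than the densest in the site. The exceptions were Ankra2 (2 in the site against 3 elsewhere) and Thbs1 (4 against 5, the latter in the exon 18 site). GAC content was part of the choice, so this too is a description.

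**Figure D4:**
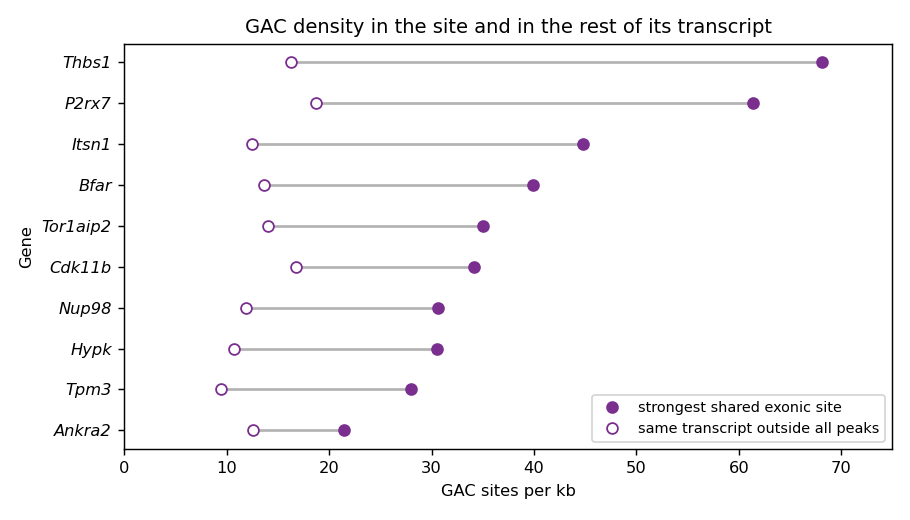
GAC sites per kb (x axis) in the strongest shared exonic site of each gene (filled circles) and in the parts of the same transcript outside all peaks (open circles). Every filled circle lies to the right of its open circle, from 21.4 against 12.6 in Ankra2 to 68.1 against 16.3 in Thbs1.

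Within these genes the weaker exonic peaks of either replicate, pooled, were not denser in GAC than the rest of the transcripts. The weaker shared sites were somewhat denser. By the lower fold of the 2 replicates, 15 shared sites from 2.5 to 5 held 17.3 GAC per kb, and 3 under 2.5 held 17.7. Shared exonic sites of other genes held 18.4 and 14.2 in these classes, so the former was not above that of other genes. Exonic peaks with a fold of 5 or more, with overlapping peaks merged, held 143 GAC in 4716 nt (30.3 per kb), those under 5 held 83 in 5957 nt (13.9 per kb), and the 10 transcripts outside all peaks held 424 in 30533 nt (13.9 per kb). All exonic peaks together held 22 GAC per kb, and 19.1 without Thbs1. UUUUU stood at 6.89 per kb in the exonic peaks and 2.23 outside, at 6.38 in the weaker peaks and at 9.54 in the stronger ones, or 7.75 without Hypk and its U tract. Shared exonic sites of other genes held more, 11.1 per kb, than the leading sites, at 6.06, and the other shared exonic sites of the 10 genes, at 7.85. GGAC stood at 3.99 per kb in the peaks and 3.5 outside, and without Thbs1 at 2.96 and 3.23, so its order turned without that gene. Intronic sequence could be read for 32 of 499 merged intronic peaks, which lie inside a longer transcript of the comprehensive set and may not stand for the rest. They held 15.5 GAC and 14.6 UUUUU per kb.

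The choice of genes used the number of GAC and not their arrangement, but the 2 are linked, since denser GAC lie closer together. The 10 leading sites held 39.2 GAC per kb, and the shared exonic sites of other genes held 17.3. Of the 74 distances between neighbouring GAC in the 10 leading sites, 24 were exactly 4 nt (32.4%), which is the pattern GACNGAC, where N is any base. Without Thbs1 it was 24 of 59 (40.7%). The pattern stood in 6 of 10 sites, with runs of 8 GAC in Itsn1, 7 in Bfar, 5 in Cdk11b, 4 in Hypk, 3 in Nup98 and 2 in Tor1aip2. It was in none of the leading sites of Thbs1, Ankra2, P2rx7 and Tpm3. In Thbs1 all 15 distances were multiples of 3, with 6 nt the shortest, since all 16 GAC are in frame. In P2rx7 4 of 6 distances were 7 nt, from a repeat visible in the printed sequence, and its other strong site held GACNGAC 1 time. The hexamer GACGAC was in 0 of the 10 leading sites, and was in the exon 18 site of Thbs1.

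**Figure D5:**
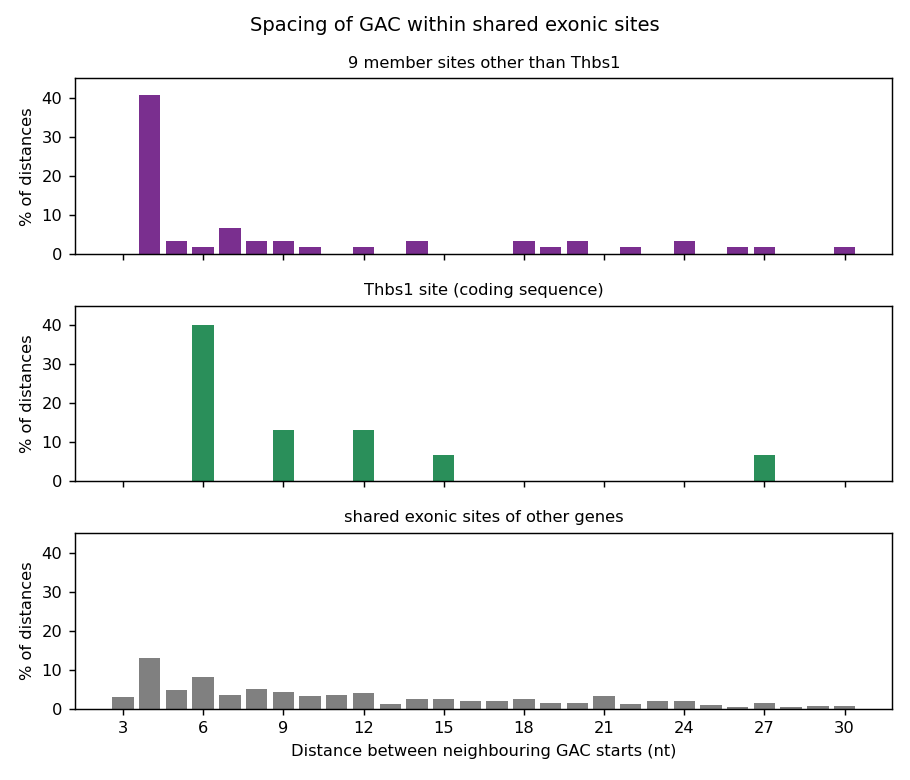
Distances between the starts of neighbouring GAC within shared exonic sites (x axis, nt, up to 30 nt) as a percentage of all such distances (y axis), for the 9 leading sites other than Thbs1, for the Thbs1 site and for the shared exonic sites of other genes. The bar at 4 nt reaches 40.7% in the 9 sites and 12.9% in other genes, and in Thbs1 every bar stands at a multiple of 3. The 9 sites held 35.6 GAC per kb, and the sites of other genes, of all strengths, held 17.3.

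Width and strength moved with this pattern, and their part in it was not tested. The 1817 distinct shared exonic sites of other genes had a median width of 42 nt, against 199 nt for the 10, and 78 of them held GACNGAC (4.29%). Their share of distances of 4 nt, over sites of all strengths, was 112 of 867 (12.9%). Per kb, the pattern stood at 11.2 in the leading sites, 0.942 in the 25 other shared exonic sites of the same genes and 1.13 in those of other genes. In other genes its density moved with strength: 0.552 per kb where the lower of the replicate folds was under 2.5, 1.3 from 2.5 to 5, and 3.08 at 5 or more. In the last class 17 of 76 sites held it (22.4%, Wilson 95% interval 14.5 to 32.9), beside 8 of 17 sites of the 10 genes (47.1%, 26.2 to 69). Those 17 include the 10 leading sites, chosen for strength and GAC, of which 6 held it. Of the 25 other shared exonic sites of the 10 genes, at any fold, 3 held it. Sites of the same gene are not independent, which these intervals ignore. The sites also differed in width and GAC content, with medians of 90 nt in other genes and 187 nt here. They held 27.3 and 38 GAC per kb, and the pattern stood at 3.08 and 7.72 per kb. GACNGAC was looked for after the sequences had been seen, and the sites had been chosen for GAC, so none of this was tested.

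DRACH stood in all 10 leading sites, at 43.4 per kb against 23.4 per kb in the shared exonic sites of other genes. It also stood in 24 of the 25 other shared exonic sites of the 10 genes and in 1138 of 1817 sites of other genes. The latter had a median width of 42 nt against 199 nt, so its presence in every leading site does not set these apart. Since a GAC with a fitting base on either side is itself a DRACH, the 2 densities are not independent. The polyadenylation hexamer AAUAAA was in 5 of 10 leading sites, those of Itsn1, Hypk, Bfar, Tpm3 and Tor1aip2, and in 6.6% of those of other genes, which were narrower. Per kb it stood at 2.33 and 1.32. Of the 5 sites, that of Tor1aip2 was in a 5′ UTR, where a match is only a match of letters, and those of Bfar and Tpm3 ran past an annotated transcript end.

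Shared exonic peaks were found in 5 of 40 relatives of the 10 genes. Over all 55450 annotated genes the shared list held 1897 exonic pairs. How many genes hold them was not counted, so 5 of 40 cannot be called few or many. Of 40 related genes in 10 families, 37 had an exonic peak in at least 1 replicate, 24 in both, 5 had a shared exonic peak, and 0 reached a fold of 10 in both replicates. Only 18 pairs in 16 genes of all those annotated did so, so a count of 0 in 40 genes sets the relatives apart from no other genes. Among other thrombospondins, Thbs2 had a shared coding peak with 3.9 and 3.84 (2 GAC in 30 nt) and Thbs3 had 3, the strongest with 3.42 and 3.18 (4 GAC in 67 nt), and all of these were below every strong Thbs1 site. Thbs4 had no exonic peak. Itsn2, the paralog of Itsn1, had a shared coding peak with 1.85 and 2.7 and 0 GAC. Naa50, an acetyltransferase subunit related to NatA, had a 3′ UTR peak with 5.87 and 2.67, and Nup160, of the nuclear pore, had a coding peak with 1.86 and 3.52. None of the other P2X receptors, tropomyosins, torsins and their cofactors, or cyclin L genes listed had a shared exonic peak. The highest exonic folds among these were 2.91 in P2rx5, 3.91 in Tpm1 and Tpm2, 4.28 in Tor1b and 4.36 in Ccnl2. For the remaining families they were 5.28 in Eps15l1, 5.62 in Xiap, 3.93 in Ankrd12 and 4.79 in Nup153. Thbs3 reached 7.44 in replicate 1 with a peak outside its strongest shared pair. RNA levels of the relatives were not compared.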

How the data were processed

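Per the submitters' processing notes, the build was mm10 and the tools that bear on the peaks were MACS2 2.1.1.20160309, Novoalign 3.09.00 and bedtools 2.25.0. Not given in the sources used here were the settings, the control of the peak caller and how strand was assigned. The authors deposited 1 peak list per WT CLIP library, whose peak names carry a p threshold of 0.005, and a shared list. Each deposited peak has a score, a fold (a ratio over background) and a −log10 p, and the shared list pairs a replicate 2 peak with the replicate 1 peak that covers at least 50% of it.

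Repeated lines were removed, leaving 387749 and 344700 peaks of median width 30 bp. Peaks were placed by midpoint on the strand-matched GENCODE M21 basic set, coding before 3′ UTR, 5′ UTR, non-coding exon and intron. The transcript holding the site (principal by annotation, then longest) gave the sequence of a site, which is the union of the paired peaks. The planned motifs GAC, DRACH and 3 others named in the report were counted on the RNA strand only, overlapping matches each counting. The spaced GAC pair and the polyadenylation hexamer were added after the sequences were seen. Wilson 95% intervals cover counting error only. No genome sequence was used, so most intronic sequence was not read. The counting steps were tested on simulated data. Python 3.11.15, pandas 2.3.3, scipy 1.17.1 and bedtools 2.31.1 were used.

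The genes and all lists were chosen with earlier results of these data known. The rule for naming was to give all 10 genes, every shared exonic pair, the strongest exonic and intronic peak, and, of the relatives, those with a shared exonic peak and the highest exonic fold of each family. A deposited count table and its summary together have 16 library columns, those of the summary repeating those of the table. Their names match no sample's labels, so they were not used, and the planned contrast of knockout with WT was not run.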

Additional observations from a re-analysis of the deposited data

How the results depend on the processing

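The strongest exonic peak exceeded the strongest intronic one in 10 of 10 genes under each alternative run (a −log10 p of 5 or more, the comprehensive annotation, or either replicate alone). The choice of genes by exonic fold fixed this outcome, so it says nothing about stability. Hypk had no intronic peak and counts as exceeding, and at a −log10 p of 5 or more 5 genes (Hypk, Thbs1, Bfar, Ankra2 and Nup98) had none left in at least 1 replicate. The exonic peak count over both replicates was 183, fell to 105 at a −log10 p of 5 or more, and was 78 to 105 with a replicate left out, by construction. The share of replicate 2 exonic peaks overlapped was 61.5%, 47.4% when 50% of the peak had to be covered, 32.1% when 50% of each had to be, 80.4% at a −log10 p of 5 or more, and 46.7% as a share of replicate 1 peaks. For intronic peaks it was 11.5%, 6.41% under either cover rule, 33.3% at a −log10 p of 5 or more and 9.56% as a share of replicate 1 peaks. The share of replicate 1 intronic peaks at a −log10 p of 5 or more was 10.7%. GAC density in exonic peaks was 22 per kb, 18.7 with 25 nt added on each side, 25.3 at a −log10 p of 5 or more, 30.3 in shared peaks, and 24.7 to 27 with a replicate left out, both above the merged value, in which bases covered by both replicates count once. Leaving out Thbs1, chosen after seeing the data, gave 19.1, beside 13.6 in the other 9 transcripts outside peaks. No paired analysis was possible because the count columns that could be compared match no sample's labels; DESeq2, the fit without a filter, leaving out replicates and the replicate block were therefore not run for the knockout contrast. Without read numbers, how depth limits the weak peaks is unknown.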
